A study of Mus musculus with 4 samples.

Results

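Semaphorins, plexins, ephrins and Eph receptors are cell-surface and secreted guidance proteins, and were followed in cultured mouse macrophages and osteoclasts as candidates for signalling between bone cells. The genes were chosen by name, from the RefSeq accession of each array probe, as those beginning with Sema, Plxn, Efna, Efnb, Epha or Ephb. A named probe was found for 51 such genes among 22903 named genes on the array, and 38 of them passed the scanner's flag for a signal well above background on 1 array or more. These 38 genes are described here, and 1 of them, Plxna4os1, is an antisense RNA of the Plxna4 locus that shares the prefix and encodes no receptor.

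The study had 4 groups with 1 one-colour microarray each: wild-type and LysM-St18flox mice each gave M-CSF-derived macrophages and osteoclasts. Macrophages were bone marrow cells cultured 4 days with M-CSF (25 ng/ml), which macrophage precursors need to survive and divide, and osteoclasts came from a further 3 days with M-CSF (25 ng/ml) plus RANKL (50 ng/ml), the inducer of osteoclast differentiation. The cell types thus differ by RANKL and by days of culture at once. By convention, the name LysM-St18flox denotes a loxP-flanked St18 gene, which encodes a zinc finger transcription factor of the Myt1 family, with Cre driven by the lysozyme M gene, which is active in macrophages, their descendants and neutrophils. Whether the wild-type mice carried Cre, how many mice were used, and whether mice were pooled are details that the sources used here leave out. With 1 array per group no test could be made, and a difference has no replicate check.

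Semaphorins are ligands, secreted in class 3 and bound to the membrane in classes 4 to 7, and plexins are their receptors, with neuropilins as co-receptors for most class 3 members. Ephrins and Eph receptors are both on the cell surface, A ephrins by a lipid anchor and B ephrins by a transmembrane segment, and contact between cells sends a signal into each of them. In bone, Sema4d made by osteoclasts is known to restrain osteoblasts through plexin B1, ephrin B2 on osteoclasts to signal to EphB4 on osteoblasts, and Sema6d to act on osteoclast precursors through plexin A1 with Trem2 and its adaptor Tyrobp.

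Values are normalised log2 signals, in which 0 is the 75th percentile of the array, and a difference of 1 is 2-fold. The signal of one gene's probe cannot be set against that of another gene's probe, so levels are compared between arrays for the same gene. Between 59.0% and 63.2% of the spots on an array were well above background, and the 4 arrays lay on 1 slide, so array position and group cannot be told apart. The SD of a difference between 2 arrays, taken from probes spotted 10 times within an array, was 0.045 to 0.055, and leaves out the variation between arrays, cultures and mice. With its brighter probe, St18 itself was at 0.30 (wild-type) and -1.52 (LysM-St18flox) on the macrophage arrays and at 1.55 and 1.12 on the osteoclast arrays, and where this probe lies relative to the floxed part is not stated, so it may check nothing. All 10 osteoclast markers were well above background on both osteoclast arrays, and all 10 macrophage markers on all 4 arrays.

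Of the 38 genes, 27 were well above background on all 4 arrays, 4 on 3 arrays, 3 on 2 arrays and 4 on 1 array. Sema3g passed on the LysM-St18flox osteoclast array only, at -5.41 where the lowest signal well above background was -5.50, and Epha10 on the LysM-St18flox macrophage array only, at -5.17. The 13 genes that did not pass were Sema3a, Sema3b, Sema3e, Sema4f, Sema4g, Plxnb1, Epha3, Epha5, Epha6, Epha7, Epha8, Ephb1 and Ephb4. Among these, Ephb4 came to -5.31 on the wild-type osteoclast array, where the lowest signal well above background was -4.89, and Epha7 to -5.55 on the LysM-St18flox osteoclast array. The receptors known as osteoblast partners, Plxnb1 and Ephb4, and Sema3a, an osteoblast product, were therefore not well above background in either cell type.

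**Figure D1:**
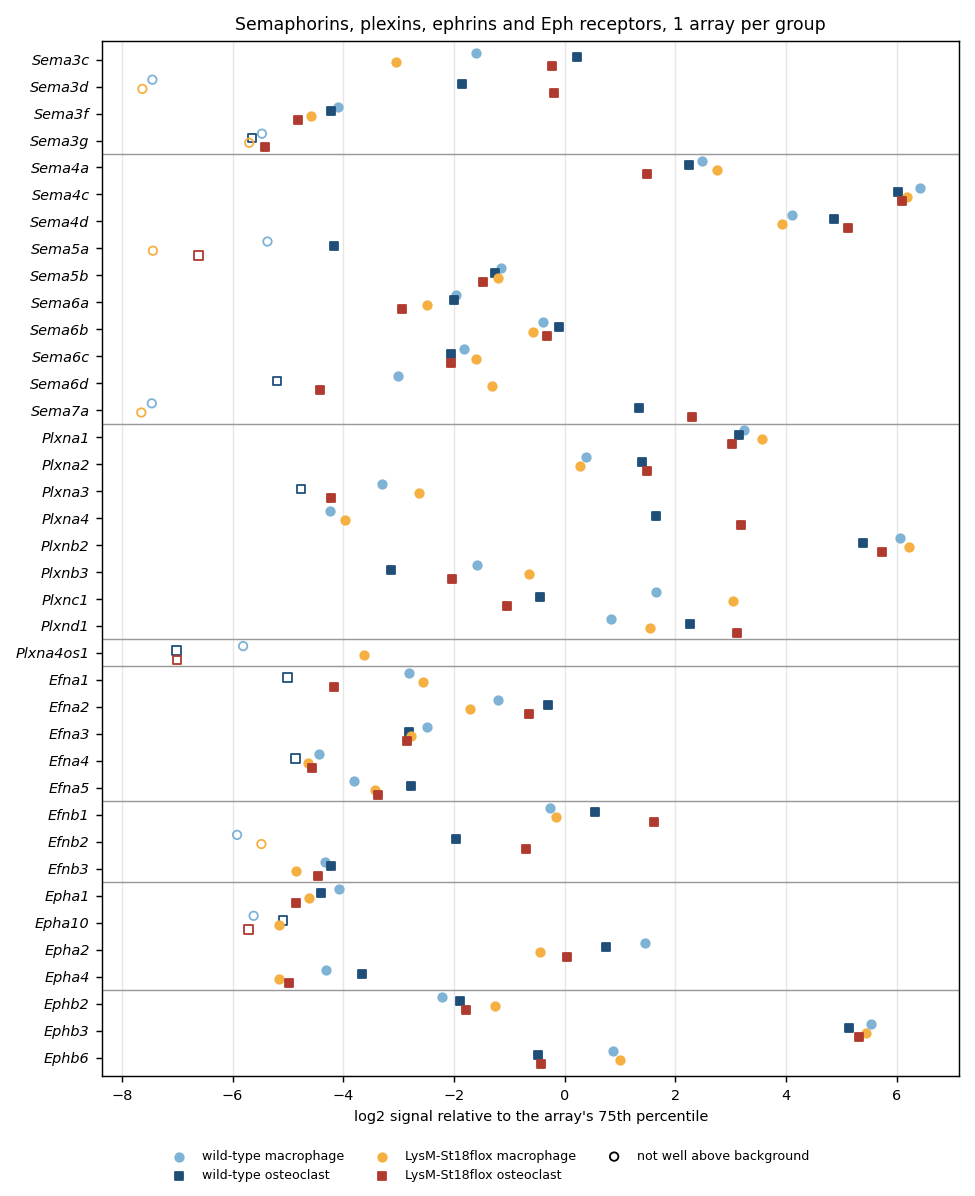
Normalised log2 signal (horizontal axis, relative to the array's 75th percentile) of the 38 genes on the 4 arrays, by family, with 1 point per array and open symbols where the probe was not well above background. Sema7a, Sema3d and Efnb2 were above background on the osteoclast arrays alone, and the Plxna4 points of the osteoclasts (1.65 and 3.19) lie far to the right of those of the macrophages (-4.24 and -3.97).

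Sema7a, Sema3d, Sema3c and Efnb2 among the ligands and Plxna4, Plxnd1 and Plxna2 among the receptors were at least 2-fold higher in osteoclasts of both genotypes. Sema6d and Efna1 among the ligands and Plxnc1, Plxna3, Plxnb3 and Ephb6 among the receptors were at least 2-fold lower in both. In the wild type, 9 of 35 genes that could be compared were at least 2-fold higher and 6 lower, where 5.70% and 7.32% of all genes compared were higher and lower (13.0% in either direction). In LysM-St18flox, 10 of 37 were higher and 8 lower, against 10.9% and 12.2% of all genes (23.2% in either direction). The same direction held in both genotypes for 7 genes that were higher and 6 that were lower, of 34 compared in both, where 4.62% and 6.40% of all genes were. The median difference of the guidance genes was -0.09 in each genotype, against 0.00 and -0.02 over all genes, so the members moved in both directions. Genes that passed the background filter only through the cell type in which they were bright, such as Sema7a, had to differ, and without such genes the wild-type counts were 5 higher and 3 lower of 27, where 4.58% and 6.84% of all genes were, and the LysM-St18flox counts 7 and 7 of 31, where 9.84% and 11.8% were. With that filter 4 genes were higher and 3 lower in both genotypes, of 27, where 3.65% and 6.12% of all genes were. With the normexp background correction the wild-type counts were 6 higher and 3 lower, where 3.55% and 5.31% of all genes were.

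Among the secreted ligands, Sema3d was not well above background in macrophages, at -7.45 (wild-type) and -7.63 (LysM-St18flox), and reached -1.86 and -0.20 in osteoclasts. It was at least 11.0-fold higher in wild-type osteoclasts and at least 41.3-fold higher in LysM-St18flox osteoclasts, where the bound is set by the lowest signal well above background on the macrophage array. The normexp correction gave smaller log2 differences, 1.65 and 3.55. Sema3c, a secreted ligand for neuropilins and plexin D1, was measured on all arrays, at -1.60 and -3.04 in wild-type and LysM-St18flox macrophages and at 0.23 and -0.22 in the osteoclasts. Both osteoclast values lay above both macrophage values, and the difference was 1.82 (3.54-fold) for wild-type cells and 2.82 (7.07-fold) for LysM-St18flox cells. Sema3f, known for repelling axons through neuropilin 2, lay between -4.09 and -4.82 on the 4 arrays, and its differences between cell types were -0.13 and -0.24.

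Among the membrane-bound semaphorins, Sema7a showed the widest contrast. This lipid-anchored ligand of plexin C1 and beta1 integrins was not well above background in macrophages (-7.46 and -7.65) and reached 1.34 and 2.30 in the osteoclasts of the respective genotypes. Its level was at least 101-fold higher in wild-type osteoclasts and at least 232-fold higher in LysM-St18flox osteoclasts, and the normexp correction gave smaller log2 differences of 4.40 and 5.98. Sema4d, the osteoclast-derived inhibitor of osteoblasts, was at 4.10 and 3.92 in wild-type and LysM-St18flox macrophages and at 4.86 and 5.12 in osteoclasts. Its difference was 0.77 for wild-type cells, short of 2-fold, and 1.21 (2.31-fold) for LysM-St18flox cells. Sema6d went the other way, from -3.02 to a signal of -5.20 that was not well above background in the wild type, and from -1.32 to -4.42 in LysM-St18flox. It was at least 3.67-fold lower in wild-type osteoclasts and 8.62-fold lower in LysM-St18flox osteoclasts, and 2 further Sema6d probes were not well above background on any array. The wild-type difference was just short of 2-fold with the normexp correction, and the LysM-St18flox difference was -0.96 with the median over probes. Sema4a, a ligand known from T cell activation, went from 2.48 to 2.24 in wild-type cells (-0.24) and from 2.75 to 1.49 in LysM-St18flox cells (-1.27, 2.41-fold lower).

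The brightest probes of the remaining membrane-bound semaphorins differed by less than 2-fold between the cell types of each genotype where they could be compared, except for Sema5a. Sema4c, Sema5b, Sema6a, Sema6b and Sema6c passed on every array, with differences from -0.40 to 0.30 for wild-type cells and from -0.46 to 0.27 for LysM-St18flox cells. Of these, Sema6c was at -1.82 and -1.61 in wild-type and LysM-St18flox macrophages and at -2.05 in both osteoclast samples. Its second probe was at -4.06 and -3.36 in macrophages, at -4.54 in wild-type osteoclasts and not well above background in LysM-St18flox osteoclasts, and the median over probes gave -1.27 for the LysM-St18flox cells. Sema5a, a ligand of plexin B3, passed on the wild-type osteoclast array alone (-4.16), at least 2.24-fold above wild-type macrophages, a difference that came to 0.28 with the normexp correction.

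Plexins moved apart from each other. Plxna4, a receptor for class 6 and, with neuropilins, class 3 semaphorins, was at -4.24 and -3.97 in wild-type and LysM-St18flox macrophages and at 1.65 and 3.19 in osteoclasts. All 4 values were well above background, and the osteoclast signal was 59.1-fold higher for wild-type and 143-fold higher for LysM-St18flox cells. With the normexp correction these log2 differences were 4.40 and 6.15. Plxnd1, the receptor of Sema3e and other class 3 semaphorins, went from 0.83 to 2.27 in the wild type (2.72-fold) and from 1.55 to 3.11 in LysM-St18flox (2.95-fold). A brighter Plxnd1 probe was left out because its spot on the LysM-St18flox osteoclast array was called outlying; elsewhere it was at 4.14 (wild-type macrophages), 5.67 (wild-type osteoclasts) and 4.62 (LysM-St18flox macrophages). Plxna2, a receptor for class 6 semaphorins, was just past 2-fold in the wild type (0.38 to 1.39, 2.02-fold) and at 2.30-fold in LysM-St18flox (0.28 to 1.48); its wild-type difference was 0.95 with each array centred on its median and 0.89 with the normexp correction.

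Plxnc1, the Sema7a receptor, was lower in osteoclasts, at 1.66 in wild-type macrophages against -0.44 in wild-type osteoclasts, and at 3.04 against -1.04 in LysM-St18flox. The signal was 4.28-fold lower for wild-type and 16.9-fold lower for LysM-St18flox cells, and a second probe gave -1.86 and -3.49. Plxnb3, a Sema5a receptor, went from -1.58 to -3.14 and from -0.65 to -2.03, 2.94-fold and 2.61-fold lower in wild-type and LysM-St18flox osteoclasts, although its second probe gave 0.01 and -1.02 and the median over probes -0.77 for wild-type cells. Plxna3, a neuropilin-associated receptor, was at least 2.75-fold lower in the wild type, from -3.30 to -4.76 (not well above background), and 3.00-fold lower in LysM-St18flox, from -2.64 to -4.22; with the normexp correction these differences were -0.71 and -0.91. Plxna1, the receptor that binds Sema6d and associates with Trem2, was at 3.25 and 3.57 in macrophages and at 3.15 and 3.03 in osteoclasts, wild-type first. Plxnb2, a receptor for Sema4c and Sema4d, was at 6.06 and 6.23 in macrophages and at 5.40 and 5.74 in osteoclasts. Neither of these plexins differed by 2-fold in any comparison.

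Among the ephrins, Efnb2 gained a signal in osteoclasts. Ephrin B2 was not well above background in macrophages (-5.92 and -5.48) and reached -1.96 and -0.70 in wild-type and LysM-St18flox osteoclasts. These levels were at least 10.2-fold and at least 27.6-fold higher, with smaller log2 differences of 1.55 and 2.97 under the normexp correction. Efnb1, which also signals in both directions between bone cells, was at -0.27 and -0.16 in macrophages and at 0.54 and 1.62 in osteoclasts, a difference of 0.81 for wild-type and 1.78 (3.43-fold) for LysM-St18flox cells. Efna2, known as an osteoclast ligand of EphA2, was at -1.20 and -1.71 in macrophages and at -0.30 and -0.64 in osteoclasts, 1.87-fold higher for wild-type and 2.10-fold for LysM-St18flox cells, the latter at 0.98 with the normexp correction. Efna1 went down, from -2.81 to -5.01 (not well above background) and from -2.56 to -4.17, at least 4.23-fold in the wild type and 3.05-fold in LysM-St18flox, and these differences were -0.96 and -0.94 with the normexp correction. Efna5 went from -3.80 to -2.77 in wild-type cells (2.04-fold higher, but 0.46 with the normexp correction, 0.96 with median centring and 0.15 with the median over probes) and from -3.43 to -3.38 in LysM-St18flox cells. The differences of Efna3, Efna4 and Efnb3 lay between -0.43 (a bound) and 0.39 in both genotypes.

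Of the Eph receptor genes, 0 of 6 compared in the wild type and 0 of 7 in LysM-St18flox were 2-fold higher in osteoclasts. Among all genes 5.70% and 10.9% were, and for so few receptors a count of 0 is near these shares. With its brighter probe 1 receptor, Ephb6, was lower in both genotypes, where 6.40% of all genes were. Ephb6, an Eph receptor without kinase activity, was at 0.87 and 1.0 in wild-type and LysM-St18flox macrophages and at -0.48 and -0.42 in osteoclasts, 2.54-fold and 2.68-fold lower. Its second probe did not share this direction, with differences of 0.10 and 0.66, and the median over probes gave -0.62 and -0.38. Ephb3, a receptor for B ephrins, was at 5.53 and 5.45 in macrophages and at 5.14 and 5.32 in osteoclasts, wild-type first. The values span a range smaller than 2-fold. Ephb2, another receptor for B ephrins, was at -2.21 and -1.25 in macrophages and at -1.89 and -1.79 in osteoclasts with its brighter probe, within 2-fold in each genotype (0.31 and -0.54). Its second probe was above background in macrophages alone, at -4.22 and -5.02, and the median over probes gave -0.57 for wild-type and -1.61 for LysM-St18flox cells. Epha2, the receptor of A ephrins known to act in osteoclast precursors, was at 1.45 and -0.44 in macrophages and at 0.75 and 0.05 in osteoclasts. Its level was lower in osteoclasts of wild-type cells and higher in those of LysM-St18flox cells, short of 2-fold each way.

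**Figure D2:**
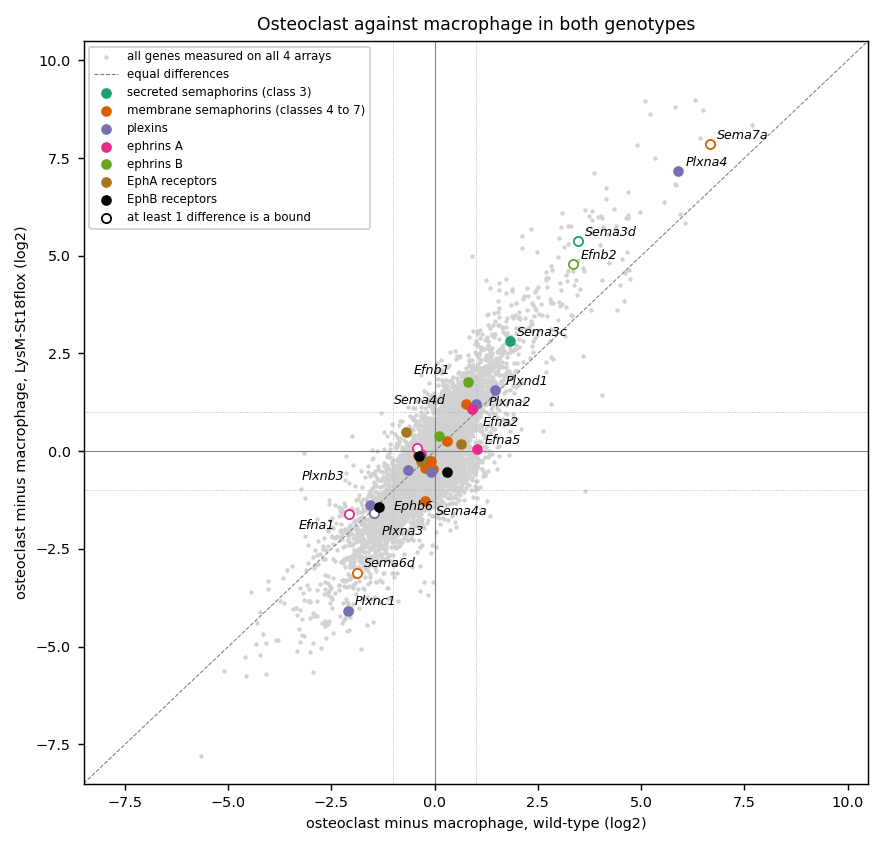
Osteoclast minus macrophage difference (log2) in the wild type (horizontal axis) and in LysM-St18flox (vertical axis), with guidance genes in colour by family, all genes measured on all 4 arrays in grey, bounds as open circles, the 2-fold limits dotted and equal differences dashed. Sema7a, Plxna4, Sema3d, Efnb2 and Sema3c lie at the upper right, and Plxnc1 (-2.10 and -4.08) and Sema6d at the lower left.

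Several genes had more than 1 probe, and the probe with the highest mean signal was used. For Plxna2, Plxna3 and Plxnc1 the other probe had the same direction as the one used, in each genotype in which both cell types were above background. The other Plxna2 probe was short of 2-fold, however, at 0.71 for wild-type and 0.90 for LysM-St18flox cells. The median over the Plxna2 probes gave 0.86 for wild-type cells. Sema4c was the widest disagreement. Its brightest probe differed by -0.40 and -0.09 between osteoclasts and macrophages of the wild type and of LysM-St18flox, a second by 0.02 and -0.25, and another by -2.79 and -2.73. Which transcripts these probes detect was not tested.

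**Figure D3:**
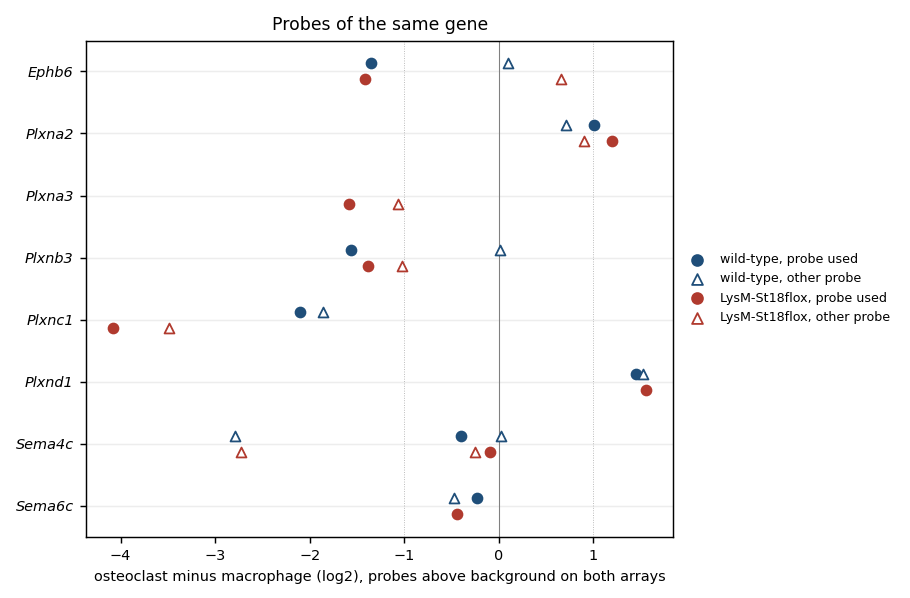
Osteoclast minus macrophage difference (log2, horizontal axis) for each probe of the genes with more than 1 probe above background on both arrays of a genotype, with filled circles for the probe used, open triangles for other probes, and colours for the genotype. The probes of Plxnc1 all lie below 0, whereas those of Ephb6 lie on both sides of 0 and 1 Sema4c probe (-2.79 and -2.73) stands apart from the others.

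Promoter sequence is shown for 4 of the 13 genes that moved the same way in both genotypes, 3 that were higher and 1 that was lower, so that the sequence upstream of genes with a shared direction can be read. RefSeq windows of the GRCm38.p6 assembly were matched for 32 of the 38 genes and 12 of the 13. The stretch printed runs from base 250 to base 31 before the annotated start, and genes were taken in order of their smaller difference where this stretch lay outside the gene's own span. Each was searched on both strands for TGANTCA, the AP-1 site, TGGAAA, an NFAT core, GAGGAA, a PU.1 core, CACGTG, the E-box read by Mitf and its relatives, and AAAGTTT, the site of the Myt1 family to which St18 belongs, none of which overlapped here. Capitals mark a match. Sema3d is at chr5:12382916-12383135 on the plus strand, Efnb2 at chr8:8661273-8661492 on the minus strand, Sema6d at chr2:124089719-124089938 on the plus strand and Sema3c at chr5:17574566-17574785 on the plus strand.
Sema3d: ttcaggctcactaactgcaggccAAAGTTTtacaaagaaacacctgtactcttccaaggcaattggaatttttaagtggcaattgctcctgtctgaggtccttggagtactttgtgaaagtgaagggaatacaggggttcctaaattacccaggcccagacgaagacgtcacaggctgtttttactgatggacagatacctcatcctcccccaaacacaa
Efnb2: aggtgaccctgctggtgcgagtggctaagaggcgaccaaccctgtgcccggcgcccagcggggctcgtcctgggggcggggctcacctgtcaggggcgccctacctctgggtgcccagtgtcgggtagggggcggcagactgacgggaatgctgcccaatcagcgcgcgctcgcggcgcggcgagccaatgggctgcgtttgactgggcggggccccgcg
Sema6d: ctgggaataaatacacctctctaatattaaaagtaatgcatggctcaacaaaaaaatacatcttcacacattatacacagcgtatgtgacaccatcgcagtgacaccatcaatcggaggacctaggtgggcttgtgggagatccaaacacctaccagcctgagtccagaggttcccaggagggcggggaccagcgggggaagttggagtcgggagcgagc
Sema3c: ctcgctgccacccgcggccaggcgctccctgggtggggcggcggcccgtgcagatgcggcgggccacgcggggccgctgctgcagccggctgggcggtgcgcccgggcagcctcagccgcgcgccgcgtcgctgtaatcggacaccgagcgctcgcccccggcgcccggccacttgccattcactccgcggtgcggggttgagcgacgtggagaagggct
The Sema3d stretch held the Myt1 family letters once, from base 227 to base 221 before the start, and the other 3 held none of the 5 motifs. Over all 32851 promoter stretches of the same length, 3.79% held AAAGTTT, 6.12% TGANTCA, 16.9% TGGAAA, 20.4% GAGGAA and 5.01% CACGTG. Of the 12 genes with a window, 4 held GAGGAA (Efna1, Plxnb3, Plxnc1 and Plxnd1), Sema3d alone held AAAGTTT, and the AP-1, NFAT and E-box letters were in none. A gene was counted here if any of its stretches matched, also one inside its own span. The shares above are of single stretches, so the units differ. The G and C content was 45.5% for Sema3d, 50.5% for Sema6d, 73.2% for Efnb2 and 78.2% for Sema3c, against a median of 51.8% over all stretches. A match is a run of letters and no measure of binding.

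In macrophages, 33 guidance genes could be compared between genotypes, and 3 were at least 2-fold higher and 2 lower in LysM-St18flox, where 3.30% and 2.98% of all genes were (6.28% in either direction). With both arrays above background, 2 of 31 were higher and 2 lower, where 2.86% and 2.53% of all genes were. Sema6d was at -3.02 in wild-type and -1.32 in LysM-St18flox macrophages, 3.25-fold higher, with a difference of 0.52 by the median over probes. Plxnc1 was 2.61-fold higher (1.66 to 3.04), and its second probe gave a difference of 0.75. The antisense RNA Plxna4os1 was well above background in LysM-St18flox macrophages alone (-3.63), at least 3.23-fold above the wild type, with a difference of 0.38 under the normexp correction, while Plxna4 itself differed by 0.27 between these arrays (-0.29 with the normexp correction). Epha2 was 3.69-fold lower in LysM-St18flox (1.45 to -0.44), and Sema3c 2.72-fold lower, at -1.60 and -3.04. The other 28 genes lay within 2-fold, among them Ephb2 (0.96 with its brighter probe, -0.80 with its second), Plxnb3 (0.93), Epha4 (-0.85) and Plxnd1 (0.73).

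In osteoclasts, 35 guidance genes could be compared between genotypes, and 5 were at least 2-fold higher and 2 lower in LysM-St18flox, where 3.80% and 3.94% of all genes were (7.75% in either direction). The higher ones were Sema3d, Plxna4 and Efnb2, which were also high in osteoclasts against macrophages, with Efnb1 and Plxnb3. Osteoclast markers moved the same way between these 2 arrays: 8 of 10 were at least 2-fold higher in LysM-St18flox osteoclasts and 0 lower, with a median of 1.20, and their summed signal was 767 and 987 times the array's 75th percentile in wild-type and LysM-St18flox osteoclasts, against 13.0 and 11.1 in macrophages. Of 10 macrophage markers, 0 differed by 2-fold between the osteoclast arrays. The part of osteoclast content in the differences of the guidance genes was not tested. Sema3d was 3.18-fold higher (-1.86 to -0.20), Plxna4 2.92-fold (1.65 to 3.19), Efnb2 2.41-fold (-1.96 to -0.70) and Efnb1 2.11-fold (0.54 to 1.62). Plxnb3 was 2.15-fold higher with its brighter probe (-3.14 to -2.03), but its second probe gave -1.12, and the difference was 0.71 with the normexp correction. Sema7a was 1.94-fold higher, just short of 2-fold, and past it with median centring (1.21). Epha4, a receptor for both classes of ephrin, was at -3.67 and -4.98 in wild-type and LysM-St18flox osteoclasts, 2.47-fold lower in the latter (-4.31 and -5.16 in macrophages), and its osteoclast difference was -0.89 with the normexp correction and -0.96 with the authors' values. Sema5a was well above background in wild-type osteoclasts alone, at least 2.53-fold above LysM-St18flox osteoclasts (-0.93 with the normexp correction). With both osteoclast arrays above background, 5 of 30 were higher and 1 lower, where 3.42% and 3.06% of all genes were. Centring each array on its median moved the median of all genes in this comparison from 0.00 to 0.24 and in the osteoclast to macrophage comparison of LysM-St18flox from -0.02 to 0.15. With that centring, 7 of 35 guidance genes were higher and 2 lower in LysM-St18flox osteoclasts, where 6.73% and 2.14% of all genes were. The rise from 5 to 7 higher genes thus came with a rise from 3.80% to 6.73% over all genes.

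**Figure D4:**
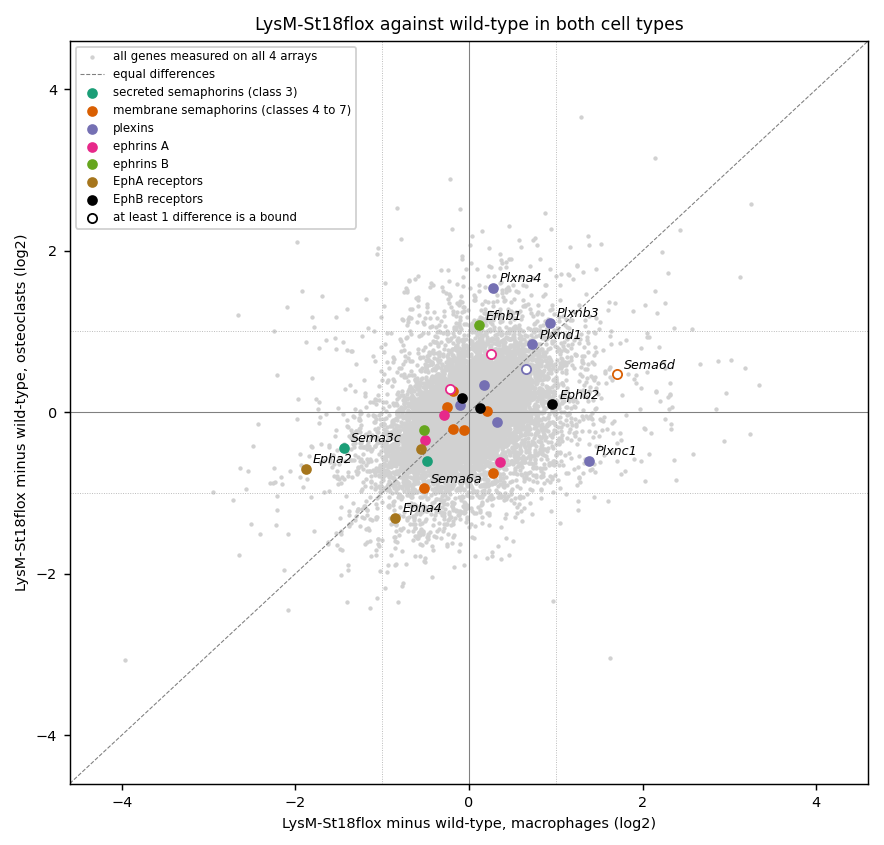
LysM-St18flox minus wild-type difference (log2) in macrophages (horizontal axis) and in osteoclasts (vertical axis), with the same colours and symbols as the plot of cell type differences. Plxna4 and Efnb1 lie high at values near 0 in macrophages (0.27 and 0.11), Epha2 and Sema3c lie to the left, and Plxnc1 lies at 1.38 in macrophages and -0.60 in osteoclasts.

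With bounds counted as values, the response of guidance genes to RANKL and time differed by at least 2-fold between genotypes for 8 of 34 genes. Of these, 5 went upward and 3 downward in LysM-St18flox relative to wild-type cells. Among all genes compared, 9.54% differed by that much (4.05% upward and 5.50% downward). Median centring of the arrays gave 7 upward and 1 downward, where all genes went to 6.83% upward and 3.23% downward. For 4 of them all values were measured, namely Plxna4 (1.28), Epha2 (1.19), Plxnc1 (-1.98) and Sema4a (-1.02). The values of Sema3d, Efnb2, Sema7a and Sema6d rest on bounds and are not given, and whether their responses differed by 2-fold is not settled. With all 4 arrays above background, 4 of 27 genes differed, 2 upward and 2 downward. Of all genes, 3.20% went upward and 4.70% downward under that filter (7.90% in either direction). Of 14 guidance genes whose mean difference between cell types was at least 2-fold, 12 had the larger difference in LysM-St18flox, where 86.0% of 2465 such genes did, a share near that of all genes. The exceptions were Efna1 and Plxnb3. Bounds were ranked as values here, for the guidance genes and for all genes. For Sema7a, Sema3d, Efnb2, Sema6d and Plxna3 the ranking rests on a bound, so which genotype had the larger difference is not settled.

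The co-receptors that work with plexins were read on the same arrays. Nrp1, the neuropilin bound by Sema3a and Sema3d, was at 5.49 and 5.85 in wild-type and LysM-St18flox macrophages and at 3.18 and 2.42 in osteoclasts. Nrp2, the neuropilin of Sema3c and Sema3f, was at 6.44 and 5.74 in macrophages and at 6.91 and 6.86 in osteoclasts, a difference of 0.47 for wild-type and 1.12 for LysM-St18flox cells. Met and Mst1r, receptor tyrosine kinases for HGF and macrophage-stimulating protein that associate with B plexins, were both higher in osteoclasts. Met went from -1.30 to 2.34 in the wild type and from -3.03 to 3.14 in LysM-St18flox. Mst1r was not well above background in macrophages (-7.31 and -7.74) and was at 3.57 and 5.40 in osteoclasts, a difference of at least 8.90 and at least 10.97. Trem2 was lower by 1.07 and 1.42, whereas its adaptor Tyrobp differed by -0.54 and -0.18, and Cd72, a Sema4d receptor of leukocytes, by -0.31 and 0.18. The whole list held 14 co-receptors and other semaphorin receptors, of which 10 were measured. In wild-type osteoclasts 2 of 9 compared were higher and 2 lower, where 5.70% and 7.32% of all genes were. In LysM-St18flox 3 of 10 were higher and 2 lower, where 10.9% and 12.2% of all genes were.

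Inside the cell, plexins act on small GTPases and Eph receptors on kinases and exchange factors. Of 28 plexin signalling genes, 26 were compared. In wild-type osteoclasts 2 were higher and 1 lower, where 5.70% and 7.32% of all genes were, with a median of -0.03 against 0.00 over all genes. In LysM-St18flox 3 were higher and 5 lower, where 10.9% and 12.2% of all genes were, with a median of -0.16 against -0.02. Those 2-fold higher in both genotypes were Rnd1 (1.04 and 2.70), an atypical GTPase that binds plexins, and Mras (1.93 and 2.61), a Ras family member. Of 27 genes of Eph and ephrin signalling, 22 were compared, with medians of -0.46 and -0.28. In the wild type 2 were higher and 1 lower, and in LysM-St18flox 2 higher and 4 lower, beside the same shares of all genes. Those 2-fold in both genotypes were the exchange factor Arhgef5 (at least 1.75 and 2.69), the kinase Abl2 (1.11 and 2.02) and Sipa1l1 (-1.76 and -2.41), a regulator of Rap.

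Of 25 slit, robo, netrin, Unc5, Dcc, neogenin, Rgm, draxin and Flrt genes, 14 were well above background on any array. In the wild type 2 of 12 compared were higher and 3 lower in osteoclasts, where 5.70% and 7.32% of all genes were. In LysM-St18flox 4 of 14 were higher and 4 lower, where 10.9% and 12.2% of all genes were. Flrt2 (2.39 and 2.54) and Flrt3 (2.69 and 2.02), membrane ligands of Unc5 receptors, were higher in both genotypes, and the netrin receptor genes Unc5a (-1.03 and -1.96) and Unc5b (-2.08 and -2.09) and the ligand gene Slit1 (-1.97 and -3.90) were lower.

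Since ephrins, Eph receptors and plexins are also made by stroma, endothelium and platelets, marker genes of these cells were read on the same arrays. Of 14 markers of stroma and osteoblasts, 4 to 6 were well above background per array. The summed signal of the list was 1.33 to 1.85 times the array's 75th percentile. Col1a2, Dcn, Lepr and Runx2 passed on all 4 arrays. Lepr was at 0.44 and 0.11 in wild-type and LysM-St18flox macrophages and at 0.52 and -0.02 in osteoclasts. Dcn was higher in osteoclasts of both genotypes, by 1.26 and 1.65. Sp7, Alpl, Ibsp, Pdgfra, Pdgfrb, Lum, Cxcl12 and Col3a1 were not well above background on any array. Endothelial markers passed for 5 or 6 of 10 genes, with sums of 6.49 to 9.04. Vwf (2.02 to 2.52), Kdr, Eng, Esam and Pecam1 passed on all 4 arrays, and Tek, Tie1, Emcn and Cldn5 on none. Kdr was lower in wild-type osteoclasts than in macrophages (-1.11), and Eng in osteoclasts of both genotypes (-1.24 and -1.76). Esam was higher in LysM-St18flox osteoclasts (1.37). The megakaryocyte and platelet list, 4 or 5 of 9 genes per array, had sums of 194 and 210 in wild-type and LysM-St18flox macrophages and 24.3 and 14.8 in osteoclasts, nearly all from Pf4 (log2 signals of 7.60 and 7.71 in macrophages, 4.58 and 3.87 in osteoclasts); the other 8 genes were at -1.67 or lower, and Itga2b, Gp9, Gp1ba and Gp5 were not well above background on any array. The neutrophil list, 8 or 9 of 9 genes with a probe, had sums of 33.1 and 40.4 in macrophages and 14.3 and 9.86 in osteoclasts. Most of the macrophage sums came from Mmp8, at 4.33 and 4.66 in macrophages and 2.25 and 1.2 in osteoclasts. In the wild type 1 of 9 was lower in osteoclasts and 1 higher, where 7.32% and 5.70% of all genes were, with a median of -0.34. In LysM-St18flox 5 of 9 were lower and 0 higher, where 12.2% and 10.9% of all genes were, with a median of -1.16. The B cell list, 3 or 4 of 7 genes, had sums of 1.35 and 1.72 in macrophages and 0.505 and 0.307 in osteoclasts. Most of its macrophage sums came from Cd79b, at -0.08 and 0.45 in macrophages and -2.32 and -2.84 in osteoclasts, wild-type first. The T and NK cell list, 4 of 8 genes, had sums between 0.945 and 1.27. The part of these cells in the differences above was not tested, and in bulk RNA fewer cells of a type and less RNA per cell cannot be told apart.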

How the data were processed

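Total RNA of 4 cultures was labelled with Cy3, and each culture is 1 group, by its labelled genotype and cell type. The submitters' processing notes name Agilent Feature Extraction, version 11.0.1.1, as the scanner software. Each deposited file of 1 array holds a processed intensity per spot, which is background-subtracted and detrended within the array, the median intensity of spot and local background, and flags of other kinds, written as 0 or 1. A second file, deposited by the authors, gives log2 levels of 30909 probes; no source used here says how it was made, but its columns share 1 distribution (median 9.39), as after quantile normalization.

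Control spots and those with an outlier flag were dropped, spots of a probe were averaged, and log2 of the processed signal minus the array's 75th percentile was used. Probes were named through RefSeq accessions and a gene table of GRCm38.p6 (32994 of 56605 probes), while the file headers name another build, so no gene coordinates are given; promoter coordinates are those of the promoter table. A gene was represented by its brightest probe and compared where either array passed the background flag. Where the other did not, the difference is a bound, taken against the dimmest passing signal there or the probe's own signal, whichever was higher. Genes were counted at 2-fold, a rule of size. The difference code was tested on simulated data. Genes named in full were those at least 2-fold in any comparison and those known in bone or macrophage biology; genes of other pathway lists were named where 2-fold in both genotypes or a co-receptor, and 1 that met this is not reported here. Members and lists were chosen with earlier results of these data known. Alternatives were the normexp correction (limma 3.58.1, offset 50, median signals), 3 other scalings, the authors' values, other filters, the median over probes and 1.5-fold. Python 3.11.15 was used.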

Additional observations from a re-analysis of the deposited data

Results flagged for a closer look

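In 3 guidance genes measured on all 4 arrays, the differences had opposite signs in the groups compared and were at least 2-fold apart, and none of these differences could be tested with 1 array per group. The LysM-St18flox minus wild-type difference of Plxnc1 was 1.38 in macrophages and -0.60 in osteoclasts, which is -1.98 between the cell types, and its second probe had the same signs (0.75 and -0.89). Epha2 was lower in wild-type osteoclasts than in macrophages (-0.70) and higher in LysM-St18flox osteoclasts (0.49), which is 1.19 between genotypes. Sema4a differed between genotypes by 0.27 in macrophages and -0.75 in osteoclasts, which is -1.02, and this came to -0.79 with each array centred on its median and -0.92 with the normexp correction.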

How the results depend on the processing

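With 1 array per group no array could be left out, and no paired analysis was possible because the groups share fewer than 2 replicate numbers. Over 8 alternative settings, the differences of 2-fold or more for Sema7a, Sema3d, Efnb2, Sema3c, Plxna4, Plxnd1 and Plxnc1 between cell types stayed past 2-fold in both genotypes wherever they could be computed. Sema7a, Sema3d and Efnb2 passed the background flag on the osteoclast arrays alone and could be computed in 6 settings. The authors' values and the filter on both arrays were no check of these 3 genes. In wild-type osteoclasts against macrophages the 15 guidance genes past 2-fold became 9 with the normexp correction, 8 with the authors' values (27 genes held) and 8 above background on both arrays. The share of all genes went from 13.0% to 8.86%, 11.5% and 11.4% in these settings. In LysM-St18flox 18 became 10 with the authors' values, where the share of all genes went from 23.2% to 20.6%. Between genotypes, the 5 genes in macrophages became 3 with the authors' values (all genes from 6.28% to 5.18%) and 10 at 1.5-fold. The 7 in osteoclasts became 4 with the normexp correction and 3 with the authors' values, where the share of all genes went from 7.75% to 3.73% and 5.08%. At 1.5-fold they became 16. The share of all genes at 1.5-fold was not computed for these comparisons. The 8 genes counted for the difference between responses became 5 with the authors' values and 4 where all 4 arrays were above background. The share of all genes went from 9.54% to 6.90% and 7.90% there. The authors' values and the stricter filter hold fewer genes; for the normexp correction the cause was not tested. The genotype difference of Plxnb3 in osteoclasts, 1.11, was -0.0047 with the median over its probes. The split of higher to lower genes moved by over 10 percentage points in 3 comparisons. For the difference between responses, 5 to 3 became 7 to 1 with median centring, 6 to 2 with the normexp correction, 4 to 4 with no filter and 2 to 2 with all arrays above background. All genes went from 4.05% upward and 5.50% downward to 6.83% and 3.23% with median centring and 3.36% and 2.43% with the normexp correction. Their shares were 5.76% and 8.84% with no filter, and 3.20% and 4.70% with all arrays above background. For the genotypes in osteoclasts, 5 to 2 became 4 to 0 with the normexp correction, 3 to 0 with the authors' values, 8 to 8 at 1.5-fold and 5 to 1 above background on both arrays. All genes there went from 3.80% higher and 3.94% lower to 2.20% and 1.53% with the normexp correction. They were at 3.16% and 1.92% with the authors' values, and at 3.42% and 3.06% above background on both arrays. In macrophages 3 to 2 became 1 to 2 with the authors' values, where all genes went from 3.30% and 2.98% to 3.02% and 2.16%. With the median over probes, Ephb2 also passed 2-fold in the difference between responses (-1.04). Signals near the background limit the dim genes.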

Other observations

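Some members lie next to each other in the genome. Sema3d and Sema3a have no protein-coding gene between them in the RefSeq order of chromosome 5, and Sema3e follows with 3 between. Sema3d was well above background on both osteoclast arrays, while Sema3a and Sema3e were not on any array. Efna1, Efna3 and Efna4 follow each other directly on chromosome 3. Their differences between osteoclasts and macrophages were at most -2.08, -0.33 and at most -0.43 in the wild type, and -1.61, -0.07 and 0.07 in LysM-St18flox.

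At the Plxna4 locus, the antisense RNA Plxna4os1 was at -5.81 and -3.63 in wild-type and LysM-St18flox macrophages and at -7.01 and -7.00 in osteoclasts, where only the LysM-St18flox macrophage value was well above background. Plxna4 had its high values on the osteoclast arrays, 1.65 and 3.19 in osteoclasts against -4.24 and -3.97 in macrophages.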
